A study of Mus musculus with 18 samples.

Results

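The genes described here are 10 genes best known from natural killer (NK) cells and T cells, namely Nkg7, Klrb1c, Gzma, Gzmb, Prf1, Il2rb, Ccl5, Cd3e, Cd3g and Tbx21. They were taken by name, as probe sets carrying a single gene symbol, and each had 1 probe set, so they are 10 of the 19505 genes tested. Their levels were followed array by array in blood-forming stem and progenitor cells, which are defined by the absence of the surface proteins of mature blood cells. Cells came from C57Bl/6J mice, either from the fetal liver (FL) of embryos at E13.5 or from the bone marrow (BM) of animals aged 3 to 12 months. From each source the study sorted 3 populations, the long-term (LT-HSC) and short-term (ST-HSC) hematopoietic stem cells and the multipotent progenitors (MPP), out of the LSK fraction, the lineage-depleted cells that carry Sca-1 and Kit, using Cd150 and Cd48. The 6 groups were thus FL LT-HSC, FL ST-HSC, FL MPP, BM LT-HSC, BM ST-HSC and BM MPP, each with 3 Clariom S arrays lettered a, b and c, 18 arrays in all. No treatment or engineered allele is part of the titles, sources or stage labels. The free-text descriptions instead speak of transplanted, guide-transduced marrow, naming sgEzh2 for 4 arrays: FL LT-HSC a, FL ST-HSC a, and in FL MPP both a and b. These descriptions go against the titles, and the titles and sources were followed. The labels do not tell whether replicate arrays come from different animals, and p-values therefore measure only the spread between these samples, which may be technical. Which antibodies defined the lineage-negative fraction was not given in the sources used here.

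NK cells and cytotoxic T cells kill target cells by releasing granules, in which the pore-forming protein perforin (Prf1) lets serine proteases such as granzyme A (Gzma) and granzyme B (Gzmb) enter the target. Nkg7 is a membrane protein of these granules. Klrb1c encodes NK1.1, the lectin-like receptor used to mark NK cells in C57BL/6 mice, and Il2rb encodes the beta chain shared by the receptors for interleukin 2 and interleukin 15. Ccl5 is a chemokine released by activated effector cells, Tbx21 encodes T-bet, a T-box transcription factor of type 1 lymphocytes, and Cd3e and Cd3g encode chains of the T cell receptor complex.

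Nkg7, Klrb1c and Gzmb, the 3 members with differences between populations that passed the test, are shown first by the promoter windows that RefSeq gives for GRCm38.p6, 250 bases before to 50 after the gene's start. RefSeq held windows for 8 of the 10 members, and Ccl5 and Il2rb were not matched. The windows lie at chr7:43436888-43437187 on the plus strand for Nkg7, chr6:128788592-128788891 on the minus strand for Klrb1c and chr14:56262285-56262584 on the minus strand for Gzmb. They are written 5′ to 3′ along the gene, with capitals for letters that match any of 5 motifs on either strand: the T-box core GGTGTGA, the core bound by RUNX factors TGTGGT, the core bound by many ETS family proteins AGGAAG, the palindrome of the STAT factors TTCNNNGAA, and the core of the TATA box TATAAA.
Nkg7: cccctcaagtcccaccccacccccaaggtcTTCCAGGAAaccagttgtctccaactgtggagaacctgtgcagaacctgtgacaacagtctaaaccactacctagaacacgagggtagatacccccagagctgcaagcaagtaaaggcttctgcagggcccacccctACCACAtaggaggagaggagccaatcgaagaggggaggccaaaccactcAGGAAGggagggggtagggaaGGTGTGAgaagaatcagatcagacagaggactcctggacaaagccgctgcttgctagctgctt
Klrb1c: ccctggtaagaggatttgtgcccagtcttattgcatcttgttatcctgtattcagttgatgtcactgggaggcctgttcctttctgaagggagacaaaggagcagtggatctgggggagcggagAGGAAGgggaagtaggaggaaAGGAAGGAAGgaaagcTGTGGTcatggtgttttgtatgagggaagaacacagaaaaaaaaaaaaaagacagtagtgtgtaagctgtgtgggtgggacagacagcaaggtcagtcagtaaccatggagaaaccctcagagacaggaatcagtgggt
Gzmb: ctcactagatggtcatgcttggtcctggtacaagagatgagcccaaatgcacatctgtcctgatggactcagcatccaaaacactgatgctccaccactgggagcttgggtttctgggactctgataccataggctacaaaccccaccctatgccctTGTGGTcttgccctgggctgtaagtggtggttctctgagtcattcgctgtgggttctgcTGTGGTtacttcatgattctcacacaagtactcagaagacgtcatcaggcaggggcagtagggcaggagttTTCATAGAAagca
The Nkg7 window held 1 match each to the T-box, RUNX, ETS and STAT letters. The Klrb1c window held 1 RUNX match and 3 ETS matches, a pair of which overlap, and the Gzmb window held 2 RUNX matches and 1 STAT match. Among all 32851 windows, 3.98% held the T-box letters, 16.8% the RUNX letters, 35.4% the ETS letters, 8.30% the STAT letters and 13.6% the TATA letters. Among the 8 matched members the T-box letters were in 1 window, the RUNX letters in 5, the ETS letters in 5, the STAT letters in 2 and the TATA letters in 0. A match describes the letters of the window and not a bound site.

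Values are the deposited log2 signals. To judge how far a value stood above the dim end of an array, 1091 olfactory receptor genes, which blood cells are not expected to use, served as a rough reference, and their 95th percentile lay between 6.85 and 7.41 over the 18 arrays. Kit was far above that level in all 18 arrays, with group means of 13.07 to 13.26. Slamf1, which encodes Cd150, had group means of 9.31 and 9.66 in FL and BM LT-HSC against 6.71 and 7.25 in FL and BM MPP, and stayed under the reference in all 3 FL MPP arrays. Cd48 had means of 12.35 and 12.26 in FL and BM MPP against 9.79 and 10.32 in FL and BM LT-HSC. In FL and BM ST-HSC, Slamf1 had means of 7.49 and 8.04 and Cd48 of 9.96 and 9.83. Cd48 was above the reference in all 18 arrays, and Slamf1 in all arrays outside FL MPP. In 4 arrays, FL LT-HSC b, BM ST-HSC b, BM ST-HSC c and BM LT-HSC c, values were spread more narrowly than in the others, with interquartile ranges of 2.56 to 2.67. BM LT-HSC c stood apart further: it held the highest value of all 18 arrays for 2372 genes, which is 12.2% of those tested. Results for the members that it moved are also given without it. In sorted cells measured in bulk, a few cells of another type in the sort and a low level in many cells cannot be told apart.

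Across the members, the array values divided the genes into a well-measured and a dim set. Nkg7 was above the olfactory 95th percentile in 18 of 18 arrays. Klrb1c and Il2rb were above it in 9 arrays each and Gzmb in 5. Tbx21 was above it in 2 arrays, Gzma, Cd3e, Cd3g and Prf1 in 1 array each, and Ccl5 in 0 arrays. For Gzma, Cd3e and Cd3g that 1 array was BM LT-HSC c. Differences in these dim genes are therefore differences between signals that a probe set without transcript could also give. In some comparisons all arrays of the dimmer group lay under this level and the brighter group's mean lay above it. Where a fold is given for these, it is a lower bound, with each dim array set to the olfactory 95th percentile of that array. Differences and SE on the log2 scale stay those of the measured signals, also where no fold is given.

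**Figure D1:**
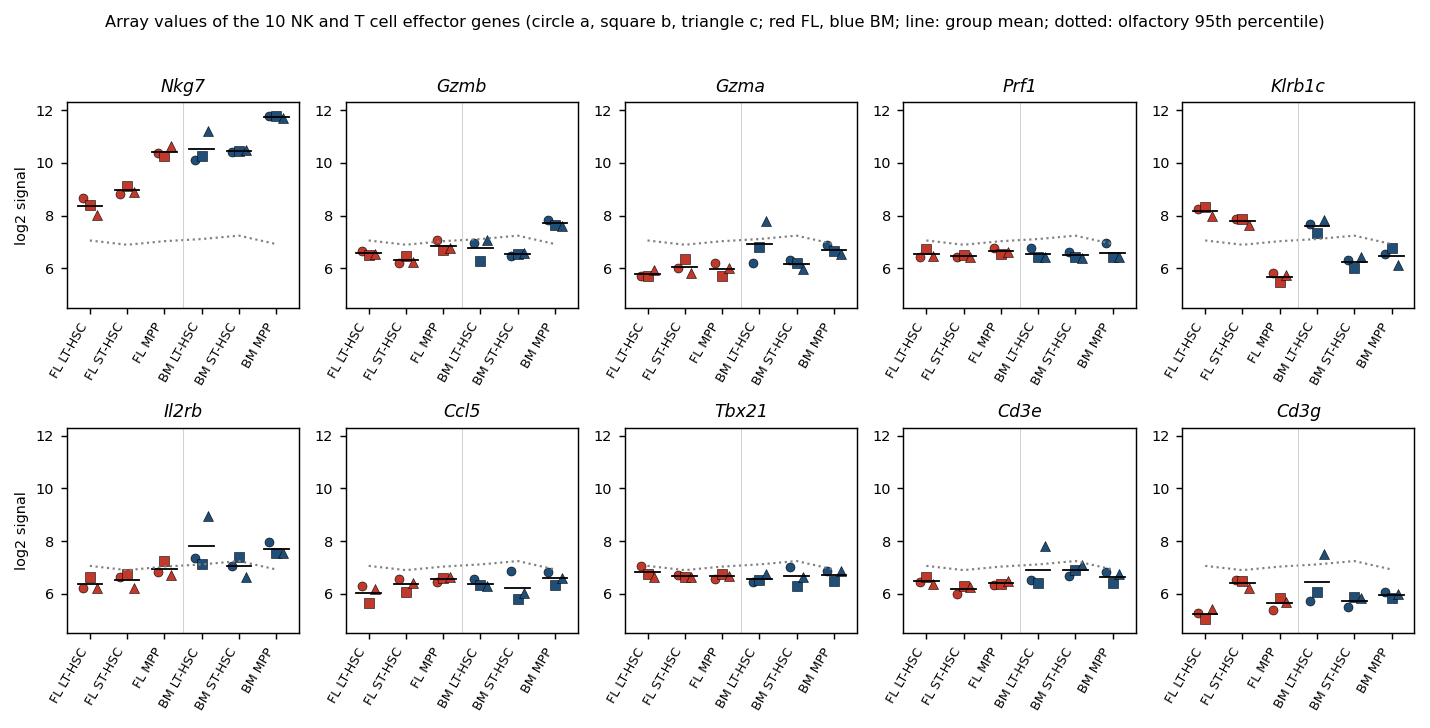
Log2 signal of each of the 10 genes (y axis) in the 6 groups (x axis); circles, squares and triangles are arrays a, b and c, red is FL and blue is BM, black lines are group means and the dotted line is the group mean of the olfactory receptor genes' 95th percentile. Nkg7 lies above the dotted line in all 18 arrays and highest in BM MPP, Klrb1c rises above it in FL LT-HSC, FL ST-HSC and BM LT-HSC, and the triangle of BM LT-HSC stands apart for Gzma, Il2rb, Cd3e and Cd3g.

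Set between the sources, the members were mostly lower in FL. Averaged over the 3 populations, 5 of 10 members were called lower in FL (Nkg7, Il2rb, Gzma, Cd3e and Gzmb) and 1 was called higher (Klrb1c), where called means that limma's p, adjusted by Benjamini-Hochberg over the whole table, was under 0.05. Of all genes, 9.26% were called lower and 15.9% higher in this comparison. The median difference was -0.35 over the 10 members and 0.01 over all genes. Within LT-HSC, 4 members were called lower in FL (Nkg7, Il2rb, Cd3g and Gzma) and 0 higher, against 4.58% and 3.08% of all genes. Within ST-HSC, Nkg7 was called lower and Klrb1c higher, against backgrounds of 6.52% and 12.1%. Within MPP, Nkg7, Gzmb and Klrb1c were called lower and 0 members higher, against 3.55% and 1.92%. Nkg7 was the only member called in the same direction within all 3 populations. Single arrays decided some of these counts. The 4 members called lower in LT-HSC became 1 without FL LT-HSC a. Calls over all genes in LT-HSC, in either direction, then fell from 1495 to 947. Without the 4 narrow arrays 2 members were lower in LT-HSC, where 5.5% of all genes were then called lower. Without BM LT-HSC c, 5 members were called lower in MPP, where 5.02% of all genes were then called lower. In ST-HSC 2 were then called lower and 2 higher, with shares of all genes that had risen to 10.6% and 15.8%.

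Among the granule genes, Nkg7 was lower in every FL population than in its BM counterpart. It read 8.67, 8.41 and 8.02 in FL LT-HSC arrays a, b and c, 8.84, 9.13 and 8.92 in FL ST-HSC, and 10.39, 10.25 and 10.63 in FL MPP. In BM it read 10.09, 10.25 and 11.21 in LT-HSC, 10.43, 10.47 and 10.48 in ST-HSC, and 11.80, 11.78 and 11.69 in MPP. Within each population the FL and BM arrays did not overlap, and within each source the MPP arrays were the highest. The FL minus BM difference was -2.15 ± 0.22 (SE) in LT-HSC (4.43-fold lower, adjusted p = 4.52e-06), -1.50 ± 0.22 in ST-HSC (2.82-fold, adjusted p = 0.000192) and -1.33 ± 0.22 in MPP (2.52-fold, adjusted p = 0.000783). Averaged over populations it was -1.66 ± 0.13 (adjusted p = 2.79e-08). Without BM LT-HSC c, the highest of its group, the LT-HSC difference was -1.80 ± 0.16. The MPP difference missed the threshold when the arrays described as sgEzh2 were left out, at -1.13 (adjusted p = 0.179). That fit keeps 1 FL MPP array, which is assumed to vary like the other groups.

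Gzmb, the granzyme that starts apoptosis in target cells, was highest in BM MPP. There it read 7.83, 7.66 and 7.62, against 7.10, 6.69 and 6.78 in FL MPP. In the other populations it read 6.67, 6.52 and 6.54 in FL LT-HSC, 6.21, 6.46 and 6.25 in FL ST-HSC, 6.96, 6.30 and 7.07 in BM LT-HSC and 6.45, 6.56 and 6.59 in BM ST-HSC. The 3 BM MPP arrays were the highest of all 18 and did not overlap with any other group. In MPP the FL minus BM difference was -0.85 ± 0.17 (adjusted p = 0.00371), with 1 of 3 FL and 3 of 3 BM arrays above the olfactory level, and over the populations it averaged -0.43 ± 0.10 (adjusted p = 0.00314). In LT-HSC it was -0.20 (95% interval -0.55 to 0.16) and in ST-HSC -0.23 (95% interval -0.58 to 0.12), neither of which passed the test. The MPP difference missed the threshold without the arrays described as sgEzh2 (adjusted p = 0.139), and its size is under a fold of 2.

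Gzma, a tryptase-like granzyme, read 5.71, 5.72 and 5.95 in FL LT-HSC and 6.21, 6.80 and 7.79 in BM LT-HSC. FL ST-HSC read 6.02, 6.34 and 5.83 and BM ST-HSC 6.33, 6.22 and 5.97, FL MPP 6.22, 5.72 and 6.02 and BM MPP 6.87, 6.68 and 6.54. Only the value of 7.79, in BM LT-HSC c, was above the olfactory level. The FL minus BM difference was -1.14 ± 0.27 in LT-HSC (adjusted p = 0.0123) and -0.71 ± 0.20 without BM LT-HSC c (adjusted p = 0.0302). It missed the threshold when the 4 narrow arrays were left out, at -0.67 ± 0.22 (adjusted p = 0.0669). The LT-HSC call was lost in 4 of 31 alternatives, also without FL LT-HSC a and with only the groups compared (adjusted p = 0.19). In MPP the FL minus BM difference was -0.71 ± 0.27 (adjusted p = 0.169), with the FL arrays all below the BM arrays. The same MPP difference had an adjusted p of 0.0158 without BM LT-HSC c, whose spread enters the error shared by all groups. Averaged over populations it was -0.65 ± 0.16 (adjusted p = 0.00448).

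Prf1, the pore-forming partner of the granzymes, stayed between 6.41 and 6.97 in the 18 arrays. Its median was 6.50 over the 9 FL arrays and 6.43 over the 9 BM arrays, and the ranges overlapped in every population. The average FL minus BM difference was 0.01, with a 95% interval of -0.18 to 0.19, and Prf1 was called in 0 of the 11 comparisons, at a signal that was under the olfactory 95th percentile in all arrays but BM MPP a.

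Klrb1c, the NK1.1 receptor gene, followed another order from the granule genes. It read 8.24, 8.32 and 7.98 in FL LT-HSC, 7.88, 7.86 and 7.66 in FL ST-HSC, and 5.81, 5.49 and 5.76 in FL MPP. In BM it read 7.67, 7.35 and 7.85 in LT-HSC, 6.32, 6.02 and 6.41 in ST-HSC, and 6.56, 6.76 and 6.11 in MPP. The 9 arrays of FL LT-HSC, FL ST-HSC and BM LT-HSC were above the olfactory level and the other 9 were not. FL exceeded BM in ST-HSC by 1.54 ± 0.17 (at least 1.47-fold, adjusted p = 1.27e-05), without overlap. In MPP the direction was the opposite, at -0.79 ± 0.17 (adjusted p = 0.00922), though both groups lay in the dim range and the call was lost without FL MPP b (adjusted p = 0.063) or without BM MPP b (adjusted p = 0.0723). In LT-HSC the difference of 0.56 ± 0.17 missed the threshold (adjusted p = 0.0606), with all FL arrays above all BM arrays, and passed it without BM LT-HSC c at 0.67 ± 0.18 (adjusted p = 0.0286). The average over populations, 0.44 ± 0.10 (adjusted p = 0.00346), thus joined values of both signs.

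Il2rb, the receptor chain that binds interleukin 2 and interleukin 15, read 6.23, 6.62 and 6.23 in FL LT-HSC, 6.62, 6.73 and 6.23 in FL ST-HSC, and 6.83, 7.24 and 6.72 in FL MPP. In BM it read 7.36, 7.12 and 8.94 in LT-HSC, 7.07, 7.41 and 6.63 in ST-HSC, and 7.95, 7.56 and 7.54 in MPP. FL and BM arrays were separate in LT-HSC and MPP and overlapped in ST-HSC. All 3 FL LT-HSC arrays lay under the olfactory level and all 3 BM LT-HSC arrays above it. The FL minus BM difference was -1.44 ± 0.34 in LT-HSC (at least 1.68-fold with all arrays, adjusted p = 0.0112) and averaged -0.90 ± 0.19 (adjusted p = 0.00208). Without BM LT-HSC c, the highest array, the LT-HSC difference was -0.87 ± 0.22 (adjusted p = 0.0191) and the average -0.71 ± 0.12 (adjusted p = 0.000232). The BM LT-HSC mean then fell from 7.80 to 7.24, so the bound of 1.68-fold rests on that array and would be smaller without it. The LT-HSC call was lost without FL LT-HSC a (adjusted p = 0.0517), with only the groups compared (adjusted p = 0.173) and without the arrays described as sgEzh2 (adjusted p = 0.116). In MPP it was -0.76 ± 0.34 (adjusted p = 0.269) with all arrays, and the same size with an adjusted p of 0.0239 without BM LT-HSC c. In ST-HSC it was -0.51, with a 95% interval of -1.22 to 0.20.

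Ccl5 and Tbx21 did not pass the test in any of the 11 comparisons. Ccl5 ranged from 5.66 to 6.63 over the 9 FL arrays and from 5.79 to 6.85 over the 9 BM arrays, and its average FL minus BM difference was -0.08 (95% interval -0.35 to 0.20). Tbx21 ranged from 6.57 to 7.07 in FL and from 6.31 to 7.02 in BM, with an average difference of 0.07 (95% interval -0.14 to 0.27). Both genes overlapped between the sources in every population. For Ccl5 the sign of the ST-HSC difference changed with the arrays used, from 0.14 with all arrays to -0.49 without the 4 narrow ones. With arrays weighted by their quality it was 0.43 (adjusted p = 0.0433), past the threshold under that alternative alone. The weighted fit called 8827 genes in ST-HSC, against 3638 without weights. ST-HSC against MPP in BM was called for Ccl5 with array weights (-0.64, adjusted p = 0.00228) and without BM ST-HSC a (adjusted p = 0.0276), and not otherwise. Those fits called 7647 and 3444 genes in that comparison, against 1190 with all arrays and no weights.

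Of the chains of the T cell receptor complex, Cd3g was low in FL LT-HSC and Cd3e was low in FL on average. Cd3g read 5.26, 5.05 and 5.43 in FL LT-HSC, 6.53, 6.49 and 6.21 in FL ST-HSC, and 5.39, 5.85 and 5.68 in FL MPP. In BM it read 5.71, 6.06 and 7.52 in LT-HSC, 5.50, 5.86 and 5.84 in ST-HSC, and 6.08, 5.85 and 5.99 in MPP. Within FL the ST-HSC arrays were all above the LT-HSC and MPP arrays, while within BM the array BM LT-HSC c stood apart. The FL minus BM difference in LT-HSC was -1.19 ± 0.30 (adjusted p = 0.0204). It was -0.64 ± 0.17 without BM LT-HSC c (adjusted p = 0.0263) and -0.54 ± 0.17 without the 4 narrow arrays (adjusted p = 0.0669). The LT-HSC call was lost in 5 of 31 alternatives, also without FL LT-HSC a, without FL LT-HSC b and with only the groups compared (adjusted p = 0.261). In ST-HSC Cd3g had the opposite sign, 0.67 ± 0.30 (adjusted p = 0.124), with no overlap of arrays and an adjusted p of 0.00473 without BM LT-HSC c.

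Cd3e, the signalling chain used to mark T cells, read 6.46, 6.65 and 6.37 in FL LT-HSC, 5.99, 6.29 and 6.26 in FL ST-HSC and 6.32, 6.37 and 6.50 in FL MPP. In BM it read 6.53, 6.42 and 7.80 in LT-HSC, 6.68, 6.90 and 7.07 in ST-HSC and 6.81, 6.40 and 6.74 in MPP. FL and BM arrays were separate in ST-HSC and overlapped in LT-HSC and MPP. The average FL minus BM difference was -0.46 ± 0.15 (adjusted p = 0.0262) and was -0.31 ± 0.08 without BM LT-HSC c (adjusted p = 0.00896). The call was lost in 8 of 31 alternatives, among them leaving out FL LT-HSC c (adjusted p = 0.0505), FL ST-HSC a (0.0538), BM ST-HSC c (0.0571), BM MPP a (0.0541) or BM MPP c (0.0512). In ST-HSC the difference was -0.70 ± 0.25 (adjusted p = 0.0598), and the adjusted p was 0.00166 without BM LT-HSC c. Without the 4 narrow arrays, which keeps only BM ST-HSC a in that group, the ST-HSC difference was -0.50. All Cd3e values in ST-HSC were under the olfactory level.

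**Figure D2:**
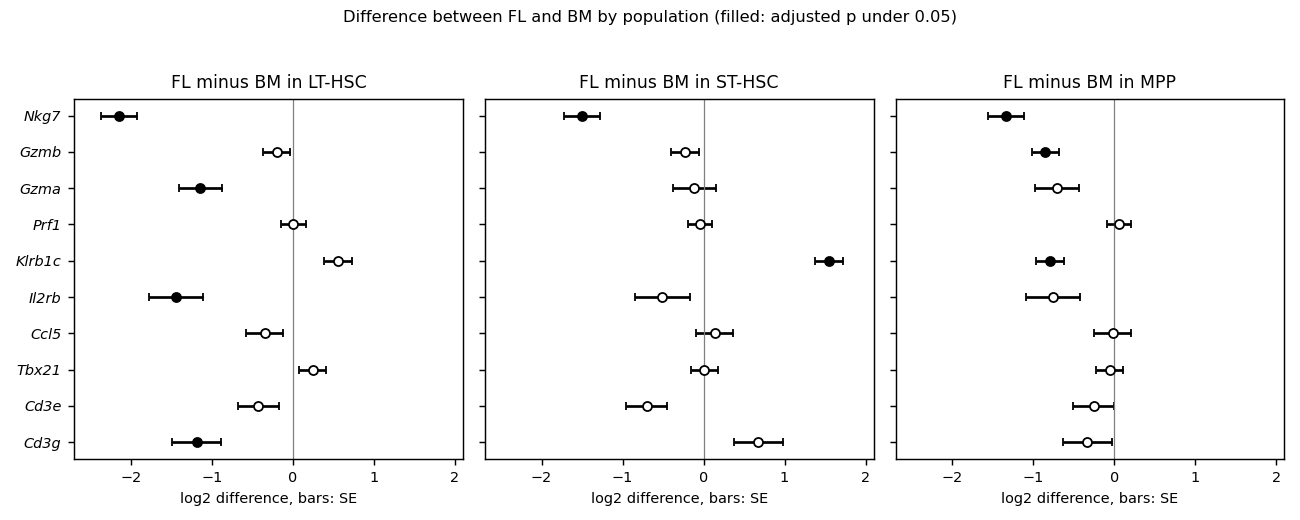
FL minus BM log2 difference (x axis) of the 10 genes in LT-HSC, ST-HSC and MPP; bars are the SE of the fit and filled points passed an adjusted p of 0.05. Nkg7 lies left of zero in all 3 panels, from -2.15 to -1.33, while Klrb1c lies at 0.56 in LT-HSC, 1.54 in ST-HSC and -0.79 in MPP.

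BM LT-HSC c read high for several members together. It held the highest value of the 18 arrays for 4 of the 10 members (Gzma, Il2rb, Cd3e and Cd3g), against 12.2% of all genes. Set against the mean of BM LT-HSC a and b, it was higher by 1.70 for Il2rb, 1.64 for Cd3g, 1.32 for Cd3e, 1.28 for Gzma and 1.03 for Nkg7. An excess of at least 1 was thus seen in 5 of 10 members, compared with 2.89% of all genes. These are values of 1 array, with no test. Cd3d, a CD3 chain of the T lineage list, was higher by 2.03 in the same array, at 8.74 against 7.02 and 6.40, and Cd8b1, a chain of the CD8 coreceptor, by 1.395. NK receptor genes were higher too, Klrk1 by 1.36, Klra7 by 1.36 and Ncr1 by 1.22, all 3 under the olfactory level in that array and in the other 17. Other genes of the same lists went the other way in that array, namely Lat (-0.55), Cd247 (-0.39), Klrc2 (-0.30) and Klra3 (-0.09). Cd247 encodes another chain of the T cell receptor complex. All these list genes were chosen after their values were seen.

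Genes of other mature cells were high in that array as well. An excess of at least 1 was measured in 7 of 19 NK receptor genes, 3 of 18 T lineage genes, 7 of 11 late neutrophil markers, 6 of 11 B cell markers, 5 of 9 macrophage markers, 5 of 8 mast cell and basophil markers, 3 of 8 plasmacytoid dendritic cell markers, 2 of 8 megakaryocyte and platelet markers and 2 of 4 erythroid markers. It was measured in 1 of 21 cytotoxic granule genes, 1 of 14 IL-2 and IL-15 receptor pathway genes, 1 of 11 chemokine and cytokine effector genes and 2 of 12 NK and innate lymphoid transcription factor genes, a list in which 2 others were lower by at least 1. The mean of the late neutrophil list was 11.03, 11.19 and 12.47 in BM LT-HSC a, b and c, and that of the B cell list 8.71, 8.79 and 9.73. The NK receptor list averaged 5.66, 5.66 and 6.34 and the T lineage list 7.20, 7.25 and 7.73. The olfactory receptor genes were raised in array c too, with medians of 5.30, 5.26 and 5.61 and 95th percentiles of 6.95, 6.99 and 7.41 in a, b and c. Part of an excess in dim genes is therefore shared with genes that blood cells are not expected to use. Cd48 reached 11.40 as the highest value of BM LT-HSC, against a lowest of 9.58. The part of other cell types in the members' values was not tested. Without the array the average FL minus BM counts were 5 members lower and 1 higher, against 10.3% and 15.1% of all genes. Of these members, Gzma and Cd3e were above the olfactory level in BM LT-HSC c alone, so their calls then rest on signals under that level.

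**Figure D3:**
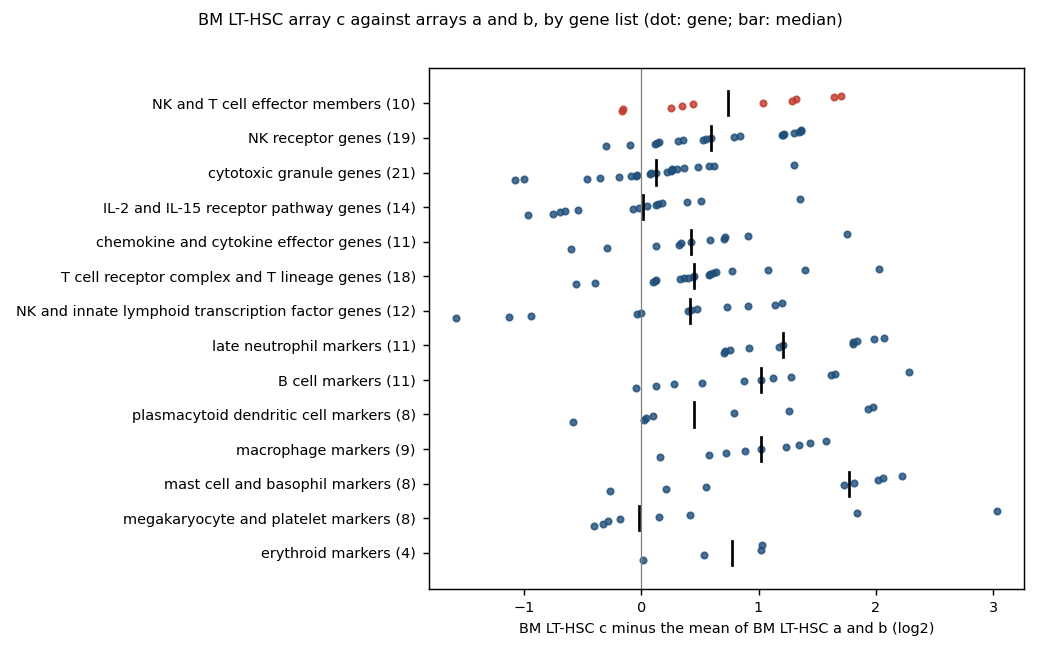
BM LT-HSC c minus the mean of BM LT-HSC a and b (x axis, log2) for each gene of the members (red) and of 13 gene lists (blue); bars are list medians and counts of genes are in parentheses. The members' median is 0.74, the mast cell and basophil list reaches 1.77, and the IL-2 and IL-15 receptor pathway list lies at 0.02.

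Compared between populations of a source, Nkg7 rose from stem cells to progenitors and Klrb1c fell. In FL, LT-HSC against MPP gave 1 member called higher, Klrb1c at 2.49 ± 0.17 (at least 2.22-fold, adjusted p = 1.03e-07), and 1 called lower, Nkg7 at -2.05 ± 0.22 (4.15-fold, adjusted p = 1.34e-05). Of all genes, 1.57% were higher and 1.84% lower. ST-HSC against MPP in FL gave the same pair, with Klrb1c at 2.11 ± 0.17 and Nkg7 at -1.46 ± 0.22, against 1.58% and 0.677% of all genes. LT-HSC against ST-HSC in FL called 0 members by limma in either direction, where 0.0923% of genes were higher and 0.467% lower. At an unadjusted p under 0.05 there were 3 members, Nkg7 (-0.59 ± 0.22), Klrb1c (0.38 ± 0.17) and Cd3g (-1.16 ± 0.30). Cd3g had an adjusted p of 0.128 there, and of 0.000333 without BM LT-HSC c, where the difference was the same and the SE was 0.15. Against FL MPP, FL ST-HSC was higher for Cd3g by 0.77 ± 0.30 (adjusted p = 0.258, and 0.00548 without BM LT-HSC c).

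In BM the same 2 genes differed and Gzmb joined them. LT-HSC against MPP gave Klrb1c higher at 1.14 ± 0.17 (adjusted p = 0.000562), and Nkg7 at -1.24 ± 0.22 (adjusted p = 0.00238) and Gzmb at -0.93 ± 0.17 (adjusted p = 0.00271) lower. The shares of all genes were 2.23% higher and 2.35% lower. ST-HSC against MPP gave Nkg7 at -1.30 ± 0.22 (adjusted p = 0.0024) and Gzmb at -1.17 ± 0.17 (adjusted p = 0.000777) lower and 0 members higher, against 4.79% and 1.31%. LT-HSC against ST-HSC gave Klrb1c higher at 1.37 ± 0.17 (adjusted p = 0.000299) and 0 members lower, against 1.21% and 0.502%. The step of Klrb1c that passed the test was thus between LT-HSC and ST-HSC in BM and between ST-HSC and MPP in FL. Klrb1c was under the olfactory level in all arrays of BM ST-HSC, BM MPP and FL MPP, so differences among these 3 groups are between signals under that level. The log2 sizes of Klrb1c against these groups also rest in part on signals not told from background. The same holds for Gzmb against BM ST-HSC, where all its arrays were under that level. Nkg7 in BM differed by 0.06 between LT-HSC and ST-HSC (95% interval -0.40 to 0.53), and by -0.28 when BM LT-HSC c was left out, since arrays a and b lay below all 3 BM ST-HSC arrays. Without BM LT-HSC c the difference of LT-HSC minus MPP in BM was -1.59 ± 0.16 for Nkg7, -1.07 ± 0.17 for Gzmb and 1.03 ± 0.18 for Klrb1c, all of them called. Fitted on the 6 arrays of LT-HSC and MPP alone, the BM differences of Nkg7 (adjusted p = 0.0802) and Gzmb (adjusted p = 0.0908) missed the threshold, as did Klrb1c between LT-HSC and ST-HSC in BM (adjusted p = 0.0833) when fitted on the arrays of those groups alone.

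The F test of the interaction between source and population called 1 member, Klrb1c (adjusted p = 0.000338), against 0.82% of all genes. That test missed the threshold without the arrays described as sgEzh2 (adjusted p = 0.0816). Its contrast of LT-HSC minus MPP was larger in FL than in BM by 1.35 ± 0.25 (adjusted p = 0.0131), the 1 member called higher against 0.215% of genes, with 0 members called lower against 0.328%. That contrast missed the threshold without FL MPP b (adjusted p = 0.0511) or BM MPP b (adjusted p = 0.0514), and without the arrays described as sgEzh2 (adjusted p = 0.599). FL MPP and BM MPP both lay under the olfactory level, so the size of this contrast rests in part on signals not told from background. Nkg7 had an interaction contrast of -0.81 ± 0.31 (adjusted p = 0.488), so a difference in its slope between sources was not called. Cd3g had an adjusted p of 0.103 in the whole interaction and of 0.00662 without BM LT-HSC c.

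Correlations between members describe how their arrays moved together, over arrays that share groups and sources. Nkg7 and Klrb1c correlated at -0.65 over 18 arrays, at -0.94 over the 9 FL arrays and at -0.21 over the 9 BM arrays. Nkg7 and Gzmb correlated at 0.76 over 18 arrays and at 0.91 over the 9 BM arrays. Gzma and Il2rb correlated at 0.87, and at 0.74 without BM LT-HSC c. Cd3e and Cd3g, chains of a single complex, correlated at 0.42 over 18 arrays and at -0.28 without BM LT-HSC c, and at -0.80 over the 9 FL arrays.

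For each member called in at least 1 comparison, the 3 genes outside the set with the highest Pearson correlation are named. Over the 18 arrays these were Adgrg3, Glipr1 and Prss57 for Nkg7 (all 0.95), and Fn1, Rab11a and Tmem26 for Klrb1c (0.90, 0.90 and 0.88). For Gzmb they were Slc4a8, Eaf2 and Irf8 (0.92, 0.90 and 0.89), and for Il2rb Jaml, Nucb2 and Fcrla (0.95, 0.93 and 0.92). For Gzma they were Gca, Rbms1 and Sorl1 (0.94, 0.94 and 0.93), for Cd3e Cntn2, Vcam1 and Rgs8 (0.92, 0.91 and 0.91), and for Cd3g Arpc5, Tmem154 and Cfp (0.86, 0.85 and 0.83). Over the 6 group means other genes led: Tbc1d2b, Tns3 and Hcfc1r1 for Nkg7, Myo1a, Cox6b2 and Ski for Klrb1c, Tax1bp1, Slc4a8 and Rin3 for Gzmb, and Bcl6, Rundc3b and Tlr6 for Il2rb. They were B3gnt8, Myh9 and Rbms1 for Gzma, Xkr9, Rgl3 and Setmar for Cd3e, and Nudt13, Irf4 and Ankrd16 for Cd3g. Slc4a8 and Rbms1 were the only genes named for a member on both scales.

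The wider NK and T cell programme was read from 6 further gene lists, and in the average of FL against BM more of their genes were called lower than higher in each. The shares of all genes to set beside these counts are 9.26% lower and 15.9% higher. Among 19 NK receptor genes, 3 were lower in FL and 0 higher, with a median of -0.21. The 3 were Cd244a (-0.80), an activating receptor also found on progenitors, Cd226 (-0.44) and Klre1 (-0.42). Ncr1, which encodes NKp46 and marks NK cells, read 5.22 to 5.64 over FL arrays and 5.16 to 6.70 over BM arrays, and its difference of -0.34 ± 0.15 was not called (adjusted p = 0.112). In 14 of the 19 genes no array rose above the olfactory 95th percentile. Among them were Ncr1, Klrk1 and also Cd226 and Klre1, whose calls are thus between signals under that level. The list averaged 5.53 to 5.81 in FL arrays and 5.66 to 6.34 in BM arrays.

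Among 21 cytotoxic granule genes, 4 were lower in FL and 1 higher, with a median of -0.13. Those lower were Tnfsf10 (-0.95), which encodes the death ligand TRAIL, Cst7 (-0.77), an inhibitor of granule cathepsins, Srgn (-0.59), the proteoglycan serglycin that packs granules, and Serpinb9 (-0.41), an inhibitor of granzyme B. Serpinb6b, a serpin, was higher by 0.92. More of this list were called in ST-HSC, where 7 were lower, led by Tnfsf10 (-0.88), Gzmf (-0.81) and Serpinb9 (-0.74), and Serpinb6b was higher by 1.48, against 6.52% of all genes lower and 12.1% higher. Without the 4 narrow arrays only BM ST-HSC a was left in its group, so no count of this list is given for that fit. Gzmf was under the olfactory level in all 18 arrays, and Serpinb9 was above it in 2. Srgn in FL MPP differed from BM MPP by -0.68 ± 0.11. Of 14 IL-2 and IL-15 receptor pathway genes, 5 were lower and 1 higher, with a median of 0.01. Il18r1, a subunit of the interleukin 18 receptor, was lower by the largest amount (-0.996), before Il15ra (-0.51) and Il12rb1 (-0.31), while Il12rb2 was higher by 0.68. Il18r1 was under the olfactory level throughout, at 4.07 to 6.21.

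Of 11 chemokine and cytokine effector genes, 5 were lower in FL and 0 higher, with a median of -0.22. Ccl3, a chemokine of myeloid and effector cells, read 6.35 to 6.47 in FL LT-HSC and 8.74 to 9.32 in BM LT-HSC, and its average difference was -2.91 ± 0.10 (adjusted p = 4.59e-13). Ccr3 (-0.97), Ccl4 (-0.89) and Ccr1 (-0.65) were also lower. Ccl4 was above the olfactory level in 18 arrays, Ccr1 in 4 and Ccr3 in 1, BM LT-HSC c. Ccl5, the chemokine among the members, had an average difference of -0.08. Of 18 T cell receptor complex and T lineage genes, 8 were lower in FL and 0 higher, with a median of -0.26, led by Cd3d (-1.09), the adaptor Lat (-0.999), Cd6 (-0.65) and Cd2 (-0.63). Lat was above the olfactory level in 18 arrays, Cd6 in 13, Cd3d in 3 and Cd2 in 0. The list averaged 6.98 to 7.26 in FL arrays and 7.20 to 7.73 in BM arrays. Without BM LT-HSC c, 7 of the 18 were lower and 0 higher, against 10.3% and 15.1% of all genes. Of 12 NK and innate lymphoid transcription factor genes, 4 were lower and 0 higher, with a median of -0.14, namely Ikzf3 (-0.79), Runx3 (-0.77), Prdm1 (-0.48) and Ets1 (-0.31). Runx3 and Ets1 were above the olfactory level in 18 arrays, Ikzf3 in 5 and Prdm1 in 0. Without BM LT-HSC c this list gave 5 lower and 2 higher, against 10.3% and 15.1% of all genes. Of these 12 genes, 4 were lower in FL LT-HSC than in FL MPP, against 1.84% of all genes: Nfil3 (-1.78) and Id2 (-1.50), factors needed for NK cell development, Runx3 (-1.56) and Zbtb16 (-0.91).

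**Figure D4:**
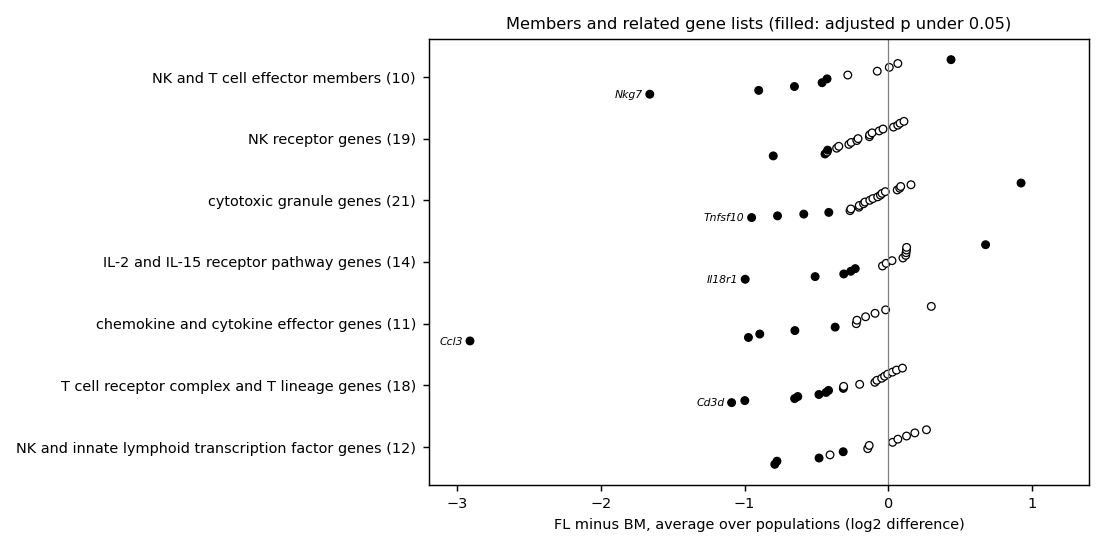
FL minus BM log2 difference averaged over populations (x axis) for the 10 members and 6 related lists; each point is a gene, filled where the adjusted p was under 0.05, and the called gene of largest size is named where it is past 0.9. Nkg7 (-1.66) and Ccl3 (-2.91) lie farthest from zero in their lists, and most points lie within 0.5 of zero.

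Markers of other mature cells moved between the sources as well. In the average of FL against BM, 11 of 11 late neutrophil markers were lower in FL, with a median of -4.40, as were 9 of 11 B cell markers (-1.09), 7 of 9 macrophage markers (-0.59), 4 of 8 mast cell and basophil markers (-0.46), 4 of 8 megakaryocyte and platelet markers (-0.65) and 1 of 4 erythroid markers (0.04). Of 8 plasmacytoid dendritic cell markers, 3 were lower and 2 higher (-0.11). The late neutrophil list had group means of 6.86 to 6.97 in FL and 10.15 to 11.56 in BM, and was highest in BM LT-HSC. The mast cell and basophil list had means of 6.74 to 7.30 in FL, and of 7.93, 7.49 and 8.38 in BM LT-HSC, ST-HSC and MPP. Nkg7 and Gzmb had their highest group means in BM MPP. The B cell list had means of 7.34 to 7.78 in FL, and of 9.08, 8.13 and 9.16 in BM LT-HSC, ST-HSC and MPP. What these cells contribute to the members' FL minus BM differences was not tested.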

How the data were processed

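Total RNA of 18 sorted samples was measured on Clariom S arrays; per the labels' protocols, cRNA was made from 2 ng of RNA with 10 PCR cycles. The authors deposited log2 signals, 1 for each probe set, made with oligo in R 3.5.01 per the submitters' processing notes. How background, normalization and summarization were handled was not given in the sources used here. Of 22203 probe sets, 19572 had a single gene symbol, all matched in RefSeq's GRCm38.p6 table; the brightest of a symbol was kept, leaving 19505 genes. Of the list genes, those without such a probe set were not analysed here.

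With limma 3.58.1 (lmFit, eBayes; R 4.3.3), 6 group means were fitted to the 18 arrays, which gave 11 contrasts and an F test of the interaction of source and population; p-values were adjusted by Benjamini-Hochberg over all 19505 genes and an adjusted p under 0.05 is named as called. Errors are SE of the fit; folds come from the log2 differences. The code was tested on simulated data. Precision is limited by how few arrays there are: 3 against 3 gave a median SE of 0.17, the average 0.10 and the interaction contrast 0.24. Median differences over all genes ran from -0.06 to 0.04.

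The members, the 13 gene lists and the tests were chosen with earlier results of these data known. Named are all members, up to 4 called genes of largest difference per list, in the average and in the contrast with most genes called, and the 3 nearest genes by Pearson correlation for each member called. The 31 alternatives left out each array, the arrays described as sgEzh2, FL ST-HSC b and c, or the 4 narrow arrays, or changed centring, quantile normalization, the dimmest 30% of genes, probe sets, eBayes, array weights, the groups fitted, a fold of at least 2, or a replicate block. Promoter windows were read from RefSeq with Python 3.11.15. Kit, Slamf1 and Cd48, genes of the sort markers, were read beside the members. Ly6a was not analysed here.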

Additional observations from a re-analysis of the deposited data

Results flagged for a closer look

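Klrb1c was the 1 member whose difference between populations changed with the source by a test of that difference itself. The moderated F test of the interaction of source and population gave an adjusted p of 0.000338, and of 0.0816 without the arrays described as sgEzh2, the 1 alternative run for this test in which it missed the threshold. The excess of LT-HSC over MPP was larger in FL than in BM by 1.35 on the log2 scale (SE 0.25, adjusted p = 0.0131). All 3 FL LT-HSC arrays (7.98 to 8.32) lay above all 3 FL MPP arrays (5.49 to 5.81), and all 3 BM LT-HSC arrays (7.35 to 7.85) above all 3 BM MPP arrays (6.11 to 6.76). Both MPP groups were under the olfactory 95th percentile in all their arrays, so the size of 1.35 rests in part on signals not told from background: it joins a difference between FL and BM of 0.56 in LT-HSC, which was not called, and of -0.79 in MPP. The contrast missed the threshold in 4 alternatives, without FL MPP b (adjusted p = 0.0511), without BM MPP b (0.0514), with only the groups compared (0.0538) and without the arrays described as sgEzh2 (0.599).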

How the results depend on the processing

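Of 26 member differences called, 10 kept their call under all 31 alternatives, and none of the 26 changed sign. The 10 were Nkg7 between FL and BM on average, in LT-HSC and in ST-HSC, between LT-HSC and MPP in FL and between ST-HSC and MPP in BM, Klrb1c between FL and BM in ST-HSC, between LT-HSC and MPP in FL and in BM and between ST-HSC and MPP in FL, and Gzmb between ST-HSC and MPP in BM. Over the alternatives, adjusted p ran from 0.00232 to 0.261 for Cd3g, 0.000551 to 0.19 for Gzma, 0.00273 to 0.173 for Il2rb and 0.0286 to 0.282 for Klrb1c in LT-HSC of FL against BM. In MPP it ran from 0.00514 to 0.891 for Gzma, 0.00667 to 0.8 for Il2rb, 0.00189 to 0.423 for Klrb1c and 2.32e-07 to 0.179 for Nkg7, and in ST-HSC from 0.00473 to 0.355 for Cd3g and 0.000411 to 0.24 for Cd3e. For the average of Cd3e it ran from 0.00116 to 0.262, and for the interaction contrast of Klrb1c from 0.00375 to 0.599. Ccl5 in ST-HSC ran from -0.080 (without BM ST-HSC b) to 0.45 (without BM ST-HSC a) when 1 array was left out. It also reversed to -0.49 without the 4 narrow arrays, and between ST-HSC and MPP in BM to 0.26 without the 4 narrow arrays, none of them called.

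Counts of members called moved as follows, and the cause was not tested except where fewer members or arrays entered. Leaving out 1 array at a time gave 0 to 1 higher and 1 to 4 lower for FL against BM in LT-HSC, 2 to 5 lower in MPP, and 1 to 2 higher and 1 to 2 lower in ST-HSC. On average over populations it gave 4 to 5 lower, as Cd3e was lost in 5 of these fits, and 2 to 3 lower for ST-HSC against MPP in BM. It gave 0 to 1 higher in the interaction contrast, 1 to 2 called by the F test, 0 to 1 lower for LT-HSC against ST-HSC in FL and 1 to 2 higher in BM, and 1 to 2 higher and 1 to 2 lower for ST-HSC against MPP in FL. Without the dimmest 30% of genes 4 members were tested, and 1 was higher and 2 lower in LT-HSC and 3 lower on average. With only the groups compared, 1 was lower in LT-HSC, 5 lower in MPP, 2 higher and 2 lower in ST-HSC, 0 higher in the interaction contrast, 0 lower for LT-HSC against MPP in BM, 0 higher for LT-HSC against ST-HSC in BM and 1 lower in FL, and 2 higher and 2 lower for ST-HSC against MPP in FL. With array weights, 5 were lower in MPP, 3 higher and 2 lower in ST-HSC, and 3 called by the F test. For LT-HSC against ST-HSC in FL, 1 was then lower. For ST-HSC against MPP, 5 were then lower in BM, and 2 higher and 2 lower in FL. Calls over all genes, in either direction, rose with these weights too, from 1067 to 3606 in MPP and from 3638 to 8827 in ST-HSC. They rose from 160 to 3555 by the F test. For ST-HSC against MPP they rose from 1190 to 7647 in BM and from 441 to 1751 in FL. The added member calls thus came with many more calls over all genes. With a fold of at least 2, 1 was lower in MPP, 0 higher and 1 lower on average, and 1 lower for LT-HSC against MPP in BM. Without the arrays described as sgEzh2, 1 was lower in LT-HSC, 0 lower in MPP, 0 higher and 3 lower on average, 0 higher in the interaction contrast, 0 called by the F test and 0 lower for ST-HSC against MPP in FL, as without FL ST-HSC b and c. Without the 4 narrow arrays, 2 were lower in LT-HSC, 5 lower in MPP, 2 higher in ST-HSC, 2 called by the F test, 2 lower for LT-HSC against MPP in FL, 1 lower for LT-HSC against ST-HSC in FL and 2 higher for ST-HSC against MPP in FL.

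Over all 6 groups, FL and BM together, same-lettered arrays showed no shared deviation on average. Their 45 pairs had a mean correlation of deviations of -6e-04 (from -0.46 to 0.53), 11 of them over 0.1. The 90 pairs of different letters had a mean of -0.002, 24 of them over 0.1. Of 18 arrays, 7 correlated best with their own letter. A pairing within FL or within BM alone was not checked. The replicate blocks joined the same letters across both sources. A fixed replicate block gave 2 members lower in ST-HSC, by adding Cd3e, and left the other counts of members as they were; a random replicate block moved none. Over all genes, FL against BM called 4904 genes on average, 1495 in LT-HSC, 3638 in ST-HSC and 1067 in MPP. With 1 array left out these counts ran from 4141 to 5943, 947 to 1704, 1462 to 6125 and 635 to 1569. Array weights gave 7260 on average, 8827 in ST-HSC and 3606 in MPP. A fold of at least 2 left 443 on average, and only the groups compared left 372 in LT-HSC. The F test called 160 genes, and from 10 to 3555 over the alternatives. Signal over background limits Gzma, Cd3e, Cd3g, Prf1, Ccl5 and Tbx21, which were above the olfactory level in at most 2 of 18 arrays.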

Other observations

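Some genes of the fixed lists changed between populations in a source-dependent way, as Klrb1c did, and are named here after their values were seen. The signed difference of LT-HSC minus MPP was lower in FL than in BM for Il7r, the interleukin 7 receptor chain of lymphoid progenitors (-1.99 ± 0.41, adjusted p = 0.0287). The same held for Id2, a regulator of innate lymphoid cells (-1.83 ± 0.37, adjusted p = 0.0297). By group means both genes rose from LT-HSC to MPP in FL, and less or not at all in BM. The signed difference was also lower for Cx3cr1 (-1.58 ± 0.27, adjusted p = 0.00858) and Ccr3 (-1.40 ± 0.29, adjusted p = 0.0321), with Ccr3 above the olfactory level in BM LT-HSC c alone. It was higher for Ccl4 (1.97 ± 0.25, adjusted p = 0.00176). Il7r read 6.15, 6.23 and 6.64 in FL LT-HSC and between 8.85 and 9.23 in FL MPP, against 7.27, 7.51 and 8.74 in BM LT-HSC and 8.54, 8.67 and 8.40 in BM MPP. Id2 read 7.66, 7.48 and 7.75 in FL LT-HSC and 9.12, 9.18 and 9.09 in FL MPP, against 8.49, 8.52 and 9.71 in BM LT-HSC and 8.71, 8.75 and 8.29 in BM MPP. In both genes BM LT-HSC c was the highest array of its group. Markers of other cells were called in the same direction as Il7r in this contrast: 1 of 11 late neutrophil, 1 of 11 B cell, 2 of 8 plasmacytoid dendritic cell, 2 of 9 macrophage and 1 of 8 megakaryocyte and platelet markers, against 0.328% of all genes. Their part in these values was not tested.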
